A study of Homo sapiens with 24 samples.

Results

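The genes described here are 8 keratins of simple epithelia and of hair that were measured in 686Tu cells, a malignant squamous carcinoma cell line of the head and neck. They were taken from the 60617 genes of the deposited count table by matching Ensembl identifiers to the symbols KRT7, KRT8, KRT18, KRT19, KRT23, KRT80, KRT81 and KRT86. RNA-seq was performed on 24 libraries in 4 groups of 6: untreated control cells, cells given epigallocatechin gallate (EGCG) at 40 µM, cells given resveratrol at 15 µM, and cells given the combination at the same concentrations. Exposure lasted 24 h. EGCG is the main catechin of green tea and resveratrol is a stilbene polyphenol of grapes. Resveratrol was dissolved in DMSO and EGCG in water, and the sources used here do not say that control cells received DMSO, so the agent and its solvent cannot be told apart. All groups are the same cell line. The labels do not say that libraries of a group came from separate cultures, and p-values therefore measure the spread between these libraries, which may be technical.

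Keratins are the intermediate filament proteins of epithelial cells. A filament is built from pairs of an acidic type I keratin and a basic type II keratin, and the pair in use marks the kind of epithelium. KRT8 (type II) and KRT18 (type I) are the partners of single-layered epithelia such as liver and gut, KRT7 (type II) is typical of ducts and glands, and KRT19 (type I) is a short keratin of simple epithelia that also occurs in basal cells of mucosa. KRT23 is a type I and KRT80 a type II epithelial keratin. KRT81 and KRT86 are type II hair keratins, the cysteine-rich keratins of the hard hair shaft. Basal squamous cells use mainly KRT5 with KRT14.

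Of the 8 genes, 6 lie in the keratin cluster on chromosome 12 and 2 in the cluster on chromosome 17. In GENCODE v44 (GRCh38), KRT80 (ENSG00000167767) lies at chr12:52168996-52192014 on the minus strand and KRT7 (ENSG00000135480) at chr12:52232520-52252186 on the plus strand. KRT86 (ENSG00000170442) lies at chr12:52249300-52309163 on the plus strand, and KRT81 (ENSG00000205426) lies at chr12:52285913-52291534 on the minus strand. All 5622 bases of KRT81 thus fall inside the span of KRT86, although the genes share 0 exonic bases. KRT8 (ENSG00000170421, chr12:52897187-52949954, minus strand) and KRT18 (ENSG00000111057, chr12:52948871-52952906, plus strand) overlap at their ends and share 525 exonic bases on opposite strands. On chromosome 17, KRT23 (ENSG00000108244) lies at chr17:40922700-40937646 and KRT19 (ENSG00000171345) at chr17:41523617-41528308, both on the minus strand.

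KRT81 and KRT86 are near copies, which limits how reads of 50 bases can be divided between them. Their coding sequences were identical at 1372 of 1457 aligned bases (94.17%), and coding positions 61 to 665 formed an unbroken identical run of 605 bases. The window below lies inside this run, at coding positions 310 to 369, and is shown because a read from it fits both genes. It lies in exon 1 of KRT81 (chr12:52291097-52291156, minus strand) and in exon 3 of KRT86 (chr12:52302226-52302285, plus strand).
KRT81 and KRT86, identical: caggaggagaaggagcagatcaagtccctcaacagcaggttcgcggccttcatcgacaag

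Across the canonical transcripts, the share of 50-base windows also found in another gene, on either strand, was 44.57% for KRT81 and 44.77% for KRT86. For KRT81, 38.35% of windows were found in KRT86. The share was 39.19% for KRT8 and 52.79% for KRT18, mostly in their processed pseudogenes and, for KRT18, in the overlapping end of KRT8 (23.9% of windows). It was 11.68% for KRT7, 4.44% for KRT23, 1.79% for KRT19 and 0.42% for KRT80. The program, strand setting and treatment of multiply mapped reads used for counting are not given in the sources used here. The division of reads between genes is therefore less certain for KRT8, KRT18, KRT81 and KRT86 than for KRT19, KRT23 and KRT80.

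**Figure D1:**
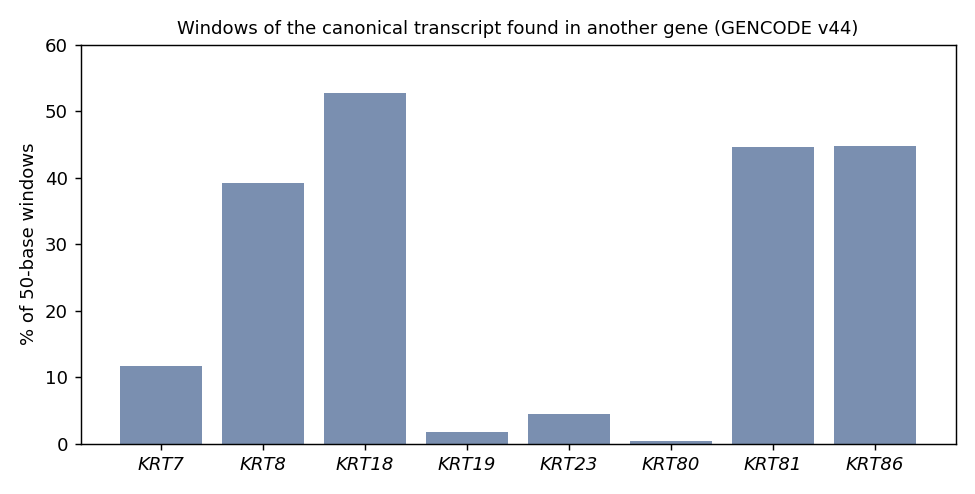
Percent of the 50-base windows of each canonical transcript (y axis, bars from 0) that also occur exactly in another annotated gene on either strand, for the 8 keratins. KRT18, KRT86, KRT81 and KRT8 stand between 39.19% and 52.79%, and KRT80, KRT19 and KRT23 below 5%.

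Library totals ranged from 7034872 to 11735574 counts, and 15476 genes had enough counts to be tested, all 8 keratins among them. Squamous markers were high in control cells, with a mean FPKM (a level scaled by gene length and library depth) of 1275 for KRT5, 1654 for KRT14, 979 for SFN and 53.7 for TP63. Of the 27 markers of fibroblasts, leukocytes, endothelium, melanocytes and glandular epithelium, 23 had too few counts to be tested. The tested ones were COL1A1, COL1A2, VWF and PMEL. THY1, CD3E, PECAM1, TYR and CDX2 were among those at 0 in control. Others of the same lists were above 0, such as LUM (0.215 FPKM), CD68 (0.269), VWF (0.155), CDH5 (0.0406), MLANA (0.0486) and MUC2 (0.00154). The fibroblast-list gene COL1A1 was the exception in level, and its values stand in the closing section. Libraries numbered 1 to 3 differed from those numbered 4 to 6 in every group by a lower mitochondrial share (0.249% to 0.326% against 0.448% to 0.775% of counts), a split seen in the data that the labels do not name. Values within these sets are given below for the results they bear on.

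By FPKM, these 8 keratins were a small part of the keratin message of untreated cells. The 8 genes held 5.34% of the summed FPKM of the 55 keratin genes in the table, whereas KRT14, KRT6A, KRT5, KRT17 and KRT6C together held 87.4%. KRT19 was the highest of the 8 at 129 FPKM and stood 8th among all keratins, followed by KRT18 (104), KRT8 (62.9), KRT80 (40.0) and KRT81 (17.8), with no overlap of control libraries between neighbours in this order. KRT23 (1.39), KRT86 (1.26) and KRT7 (1.19) were the lowest of the 8, at the 21st to 23rd place among all keratins, and their libraries overlapped. The order of the leading 3 genes depended on gene length. The share of the 8 and the places among all keratins were taken by FPKM only. FPKM was set on merged exons, which for KRT8 span 6881 bases against 1784 in its canonical transcript. Per kilobase of canonical transcript, KRT8 had 2116 ± 50.1 normalized counts, KRT18 1974 ± 98.7 and KRT19 1898 ± 84.3 (SD, n = 6), and the libraries of KRT8 and KRT18 overlapped. KRT80 and KRT81 came 4th and 5th on both scales.

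**Figure D2:**
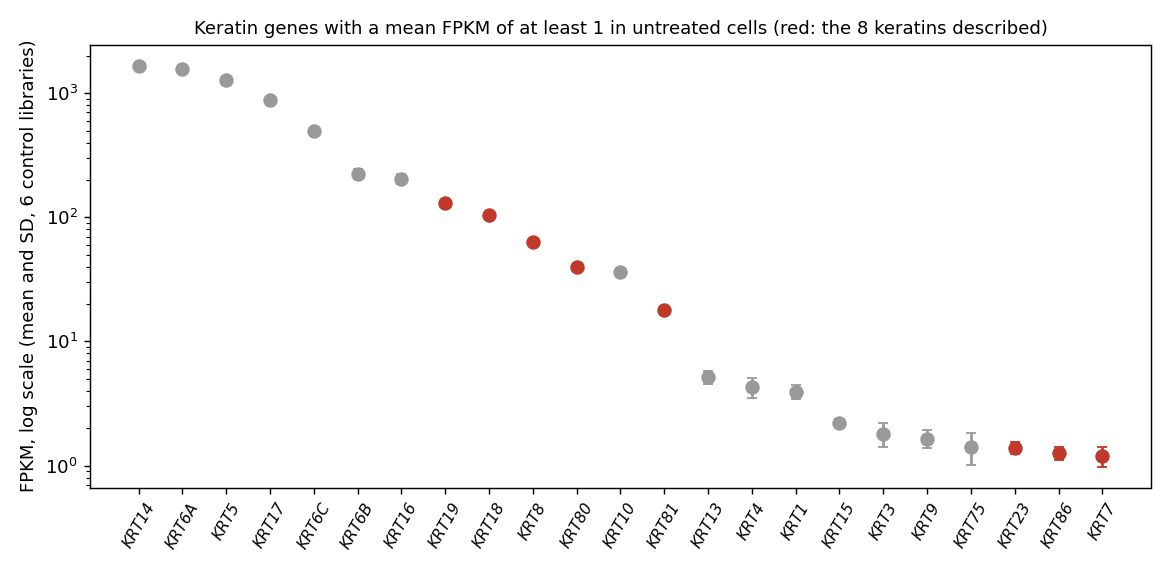
Mean FPKM with SD (log y axis) in the 6 control libraries for each keratin gene with a mean of at least 1 (x axis), with the 8 keratins described here in red. KRT19, KRT18, KRT8, KRT80 and KRT81 lie between 17.8 and 129 FPKM, below the 7 leading squamous keratins at 204 to 1654 FPKM, and KRT23, KRT86 and KRT7 lie below 1.5 FPKM.

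Other keratins of these classes had few counts. KRT20, the remaining simple-epithelial keratin, had a mean of 0.0204 FPKM in control and was not tested. None of the other 15 hair keratins had enough counts to be tested, and the highest of them, KRT83, had a mean of 0.633 FPKM in control, compared with 17.8 for KRT81. Among the 9 keratins of the hair-follicle sheath, KRT75 alone was tested, and in the 6 comparisons it passed neither the edgeR nor the DESeq2 test and had an unadjusted p under 0.05 in 0.

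To find which keratins responded, each treatment was compared with control by edgeR's quasi-likelihood test over the 15476 genes, and a gene was called a DEG at a Benjamini-Hochberg adjusted p under 0.1 with p under 0.05. Fold changes below are on the log2 scale with their SE, and levels are normalized counts with n = 6 libraries per group. A lower value in bulk RNA cannot tell fewer expressing cells from less RNA per cell.

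Treatment with EGCG alone changed the hair keratin KRT81 most. KRT81 ranged from 277 to 320.3 (median 296) in control and from 166 to 215 (median 193) in EGCG-treated cells. The groups did not overlap, and the mean fell from 300.0 ± 16.8 to 191 ± 16.6. The log2 fold change was −0.65 (SE 0.0588, adjusted p = 1.05e-09), and it was larger in absolute size than that of 99.49% of tested genes. The log2 ratio of means was −0.64 within replicates 1 to 3 and −0.66 within replicates 4 to 6. The edgeR log2 fold change was −0.62 (SE 0.0583, adjusted p = 2.06e-09) when the counts of KRT86 were added to those of KRT81.

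Its near copy KRT86 did not pass the test. It ranged from 23.1 to 30.6 (median 25.2) in control and from 17.96 to 22.0 (median 20.4) with EGCG, so that here too the groups did not overlap. Its log2 fold change was −0.40 (SE 0.164, adjusted p = 0.339) on 14 to 36 counts per library across all groups.

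KRT8 was upregulated by EGCG. It ranged from 3616 to 3852 (median 3809) in control and from 3933 to 4540.4 (median 4253) with EGCG, again without overlap. The log2 fold change was 0.16 (SE 0.0309, adjusted p = 0.00215), and 0.17 (SE 0.0283, adjusted p = 0.00039) with the counts of its pseudogenes added. It did not pass the test in replicates 4 to 6 alone (0.13, adjusted p = 0.211). The partner KRT18 had a log2 fold change of 0.12 (SE 0.0356), did not pass the test at an adjusted p of 0.122, and overlapped control, with 2811 to 3253 (median 3049.5) against 2566 to 2954 (median 2820.5). With the split by replicate number as a term in the fit, KRT18 was called after EGCG (0.12, SE 0.0295, adjusted p = 0.029).

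Of the 8 keratins, 1 was thus upregulated and 1 downregulated by EGCG, against 1.76% of all tested genes called in this comparison (0.905% upregulated and 0.859% downregulated), and 3 had libraries that did not overlap control, against 1.63% of all genes. KRT23 had a log2 fold change of −0.43 (SE 0.129, adjusted p = 0.161) with overlapping libraries. Those of KRT7 (−0.17, 95% CI −0.44 to 0.10), KRT19 (0.02, −0.07 to 0.11) and KRT80 (−0.04, −0.11 to 0.02) had intervals that included 0. For KRT7 the log2 ratio of means to control was −0.27 in replicates 1 to 3 and −0.0017 in the others. The median log2 fold change of the 8 was −0.11, against 0.0009 for all tested genes.

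Resveratrol changed KRT23 and KRT80 most. KRT80, a keratin found near desmosomes, ranged from 1480.4 to 1571 (median 1522) in control and from 2254 to 2534 (median 2391) with resveratrol. Every resveratrol library stood above every control library, a 1.57-fold increase (log2 0.65, SE 0.0319, adjusted p = 7.0e-19). KRT19 was likewise upregulated, from between 2469.8 and 2771 (median 2646) in control to between 3125 and 3473 (median 3293.5), with no overlap (log2 0.33, SE 0.0425, adjusted p = 3.6e-08).

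KRT23 and KRT18 were downregulated by resveratrol. KRT23 ranged from 28.6 to 38.8 (median 36.1) in control and from 14.8 to 21.2 (median 17.4) with resveratrol, which put every treated library below every control library. Its log2 fold change was −0.96 (SE 0.138, adjusted p = 3.5e-07), with −0.84 and −1.11 in replicates 1 to 3 and 4 to 6. KRT18 ranged from 2300.45 to 2488 (median 2353) with resveratrol, below all control libraries (log2 −0.23, SE 0.0358, adjusted p = 1.2e-06). The value for KRT18 was −0.22 (SE 0.0359, adjusted p = 2.7e-06) with its pseudogenes added.

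KRT81 was near the limit of the call after resveratrol. It ranged from 266 to 296 (median 272), which overlapped control, and its log2 fold change of −0.12 (SE 0.0552, adjusted p = 0.0591) passed the test. It did not pass in replicates 1 to 3 alone (−0.15, adjusted p = 0.177), in replicates 4 to 6 alone (−0.10, adjusted p = 0.328) or with library totals as the only scaling (−0.04, adjusted p = 0.621). KRT8 did not pass the test (0.03, 95% CI −0.03 to 0.09), nor did KRT7 (−0.11, −0.38 to 0.15) and KRT86 (−0.24, −0.56 to 0.08). For KRT7 the log2 ratio of means was −0.36 in replicates 1 to 3 and 0.16 in the others, and for KRT86 it was −0.01 and −0.54.

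In total, 2 of the 8 keratins were upregulated and 3 downregulated by resveratrol. This share stands beside 56.9% of all tested genes, of which 28.9% were upregulated and 28.0% downregulated, and is therefore near the background. Libraries of 4 keratins did not overlap control, against 31.1% of all genes. KRT23 and KRT80 lay among the genes with the larger changes, above 97.42% and 92.45% of tested genes in absolute size.

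**Figure D3:**
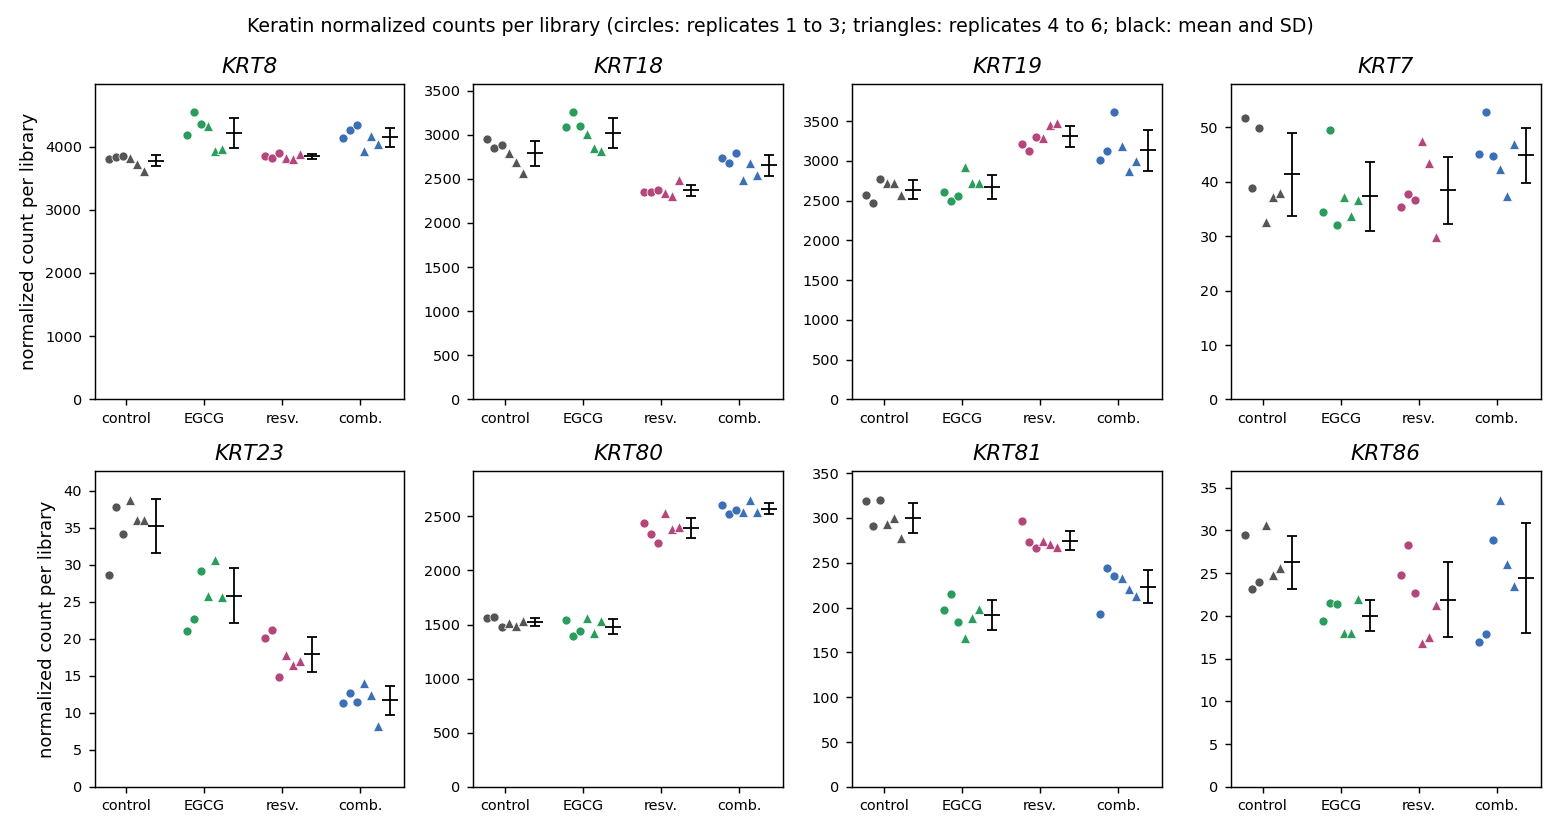
Normalized count per library (y axis from 0, scale set per gene) for each of the 8 keratins in the 4 groups (x axis), with circles for replicates 1 to 3, triangles for replicates 4 to 6, and mean with SD in black. KRT80 in the resveratrol and combination libraries lies between 2254 and 2653, whereas all control and EGCG libraries lie between 1393 and 1571, and KRT81 is lowest in EGCG-treated cells.

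The combination gave the lowest KRT23 and the highest KRT80. KRT23 ranged from 8.16 to 14.1 (median 11.9) with the combination, below every library of the other 3 groups. Its mean was 35.2 ± 3.64 in control and 25.8 ± 3.68 with EGCG, compared with 17.9 ± 2.35 after resveratrol and 11.7 ± 2.0003 after the combination. Against control, the log2 fold change was −1.58 (SE 0.156, adjusted p = 7.8e-11), larger in absolute size than that of 99.46% of tested genes. Combination libraries held only 8 to 13 raw KRT23 counts each, which limits the precision of this value.

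KRT80 ranged from 2518 to 2653 (median 2551) with the combination. Its mean was 1524 ± 38.05 in control and 1479.8 ± 70.4 with EGCG, and it was 2389.9 ± 94.5 in the presence of resveratrol and 2569.9 ± 49.9 in that of both agents. The combination stood 1.69-fold above control with no overlap (log2 0.76, SE 0.0319, adjusted p = 6.1e-21). KRT19 ranged from 2872 to 3610.0 (median 3063) and was also upregulated against control (log2 0.25, SE 0.0427, adjusted p = 4.9e-06), by 0.32 (log2 ratio of means) in the first set of replicates and 0.18 in the second.

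KRT8 ranged from 3927 to 4347 (median 4150.5) with the combination, above all control libraries (log2 0.14, SE 0.0309, adjusted p = 0.000248). KRT81 ranged from 193 to 244 (median 227), below all control libraries (log2 −0.42, SE 0.0578, adjusted p = 9.6e-08), and was −0.39 (SE 0.0573, adjusted p = 3.3e-07) with KRT86 added. KRT18, at 2483 to 2796 (median 2679), missed the test, since its unadjusted p was above 0.05 although the edgeR adjusted p was 0.0994 (log2 −0.07, 95% CI −0.14 to 0.0034). With the split by replicate number in the fit it was called lower (−0.07, SE 0.0298, adjusted p = 0.0454). KRT7 (0.11, −0.15 to 0.38) and KRT86 (−0.09, −0.41 to 0.23) did not pass the test either. The log2 ratio of means in the earlier and later numbered sets was 0.02 and 0.23 for KRT7 and −0.26 and 0.04 for KRT86. In this comparison 3 keratins were upregulated and 2 downregulated, and 5 did not overlap control. Of all tested genes, 59.8% were called (29.9% in each direction) and 31.9% did not overlap control, so the count of keratins is near the background.

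**Figure D4:**
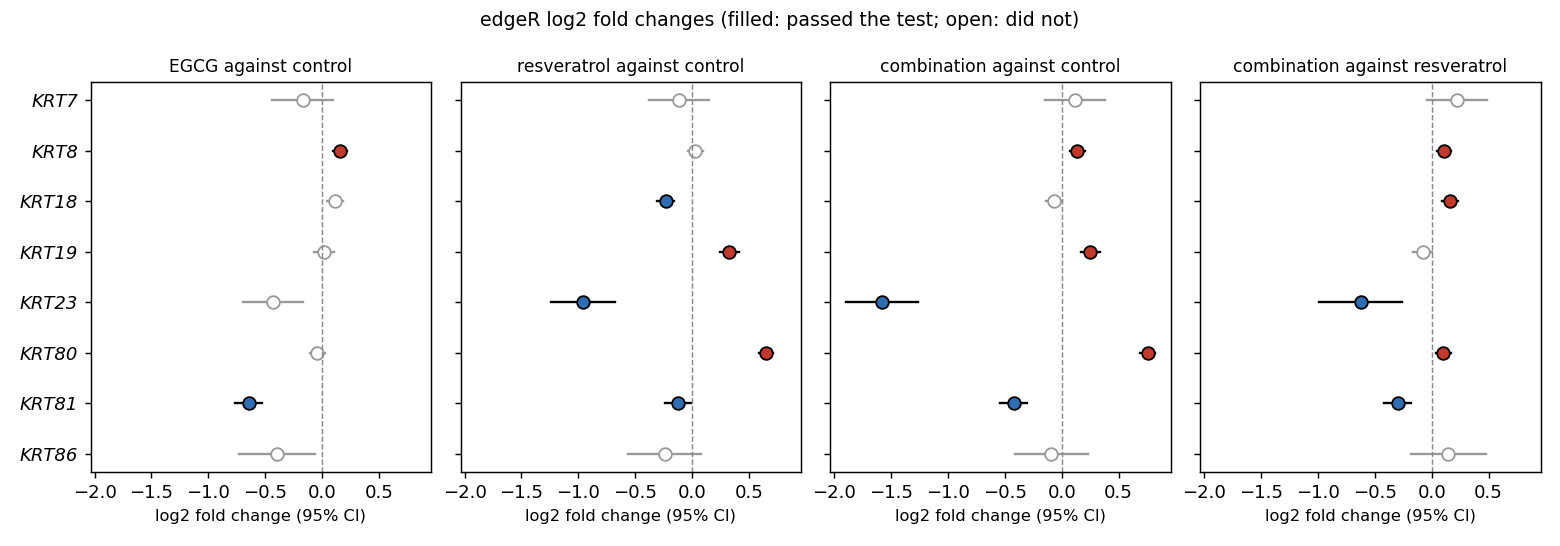
Log2 fold change (x axis) with 95% CI from edgeR for each keratin (y axis) in 4 comparisons, with filled points for genes that passed the test (red higher, blue lower) and open points for those that did not. KRT81 is at −0.65 for EGCG and −0.12 for resveratrol, whereas KRT80 is at −0.04 and 0.65 and KRT23 at −0.43 and −0.96.

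To see what EGCG added to resveratrol, the combination was compared with resveratrol alone. Here 3 keratins were higher and 2 lower, against 7.86% of all tested genes called (4.01% higher and 3.86% lower). Libraries did not overlap for 4 of the 8, against 3.19% of all genes. KRT8 (log2 0.11, SE 0.0309, adjusted p = 0.0336) and KRT18 (0.16, SE 0.0359, adjusted p = 0.00404) were both higher in all combination libraries than in all resveratrol libraries, and neither passed the test in replicates 4 to 6 alone (0.07, adjusted p = 0.475, and 0.11, adjusted p = 0.226). KRT81 was lower (−0.30, SE 0.0582, adjusted p = 0.000957) without overlap, and separate fits of replicates 1 to 3 and 4 to 6 gave −0.31 and −0.29.

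KRT23 (−0.63, SE 0.179, adjusted p = 0.0635) was lower and KRT80 (0.10, SE 0.0312, adjusted p = 0.0437) higher in the combination than with resveratrol, and both calls were close to the threshold. Over the 24 fits that left out 1 library, the log2 fold change of KRT23 stayed between −0.68 and −0.54 and that of KRT80 between 0.09 and 0.12. The KRT80 libraries overlapped, at 2254 to 2534 with resveratrol and 2518 to 2653 with the combination. By edgeR, neither KRT23 nor KRT80 passed in replicates 1 to 3 alone (adjusted p = 0.201 and 0.122). The same held in replicates 4 to 6 alone (0.498 and 0.444) and with every gene of at least 1 count (0.177 and 0.125). DESeq2 did not call KRT23 with all libraries (−0.63, adjusted p = 0.113). KRT23 did not pass the test without resveratrol replicate 1 (adjusted p = 0.124), resveratrol replicate 2 (0.172), combination replicate 3 (0.106) or combination replicate 6 (0.162). KRT80 did not pass without resveratrol replicate 2 (adjusted p = 0.103), resveratrol replicate 3 (0.13) or combination replicate 5 (0.102). KRT19 was not called (−0.08, 95% CI −0.17 to 0.01) but passed in replicates 4 to 6 alone (−0.17, adjusted p = 0.0172) and without combination replicate 3 (−0.13, adjusted p = 0.0383). KRT7 (0.23, −0.04 to 0.49) and KRT86 (0.15, −0.18 to 0.48) had wide intervals.

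Compared with EGCG alone, 4 keratins were higher and 2 lower in the combination, against 57.8% of all tested genes called (28.7% higher and 29.1% lower). KRT80 (log2 0.80, SE 0.0321, adjusted p = 2.0e-21), KRT19 (0.23, SE 0.0427, adjusted p = 2.0e-05) and KRT81 (0.22, SE 0.0620, adjusted p = 0.00277) were higher, and KRT23 (−1.15, SE 0.167, adjusted p = 3.9e-07) and KRT18 (−0.19, SE 0.0357, adjusted p = 4.1e-05) were lower. Libraries did not overlap for KRT80, KRT23 and KRT18, 3 of the 8, against 27.5% of all genes. Those of KRT19 and KRT81 overlapped, and KRT81 did not pass in replicates 1 to 3 alone (0.18, adjusted p = 0.143). KRT7 was called higher (0.28, SE 0.133, adjusted p = 0.0706), also with overlapping libraries, at 32.0 to 49.6 (median 35.6) with EGCG and 37.4 to 52.7 (median 44.9) with the combination. DESeq2 did not call KRT7 in this comparison (adjusted p = 0.125). By edgeR, KRT7 did not pass in replicates 1 to 3 or 4 to 6 alone (adjusted p = 0.18 and 0.321). KRT8 did not pass the test (−0.02, 95% CI −0.09 to 0.04).

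The interaction of the agents, which asks whether EGCG acts alike with and without resveratrol, was called for KRT81 alone among the 8, against 0.265% of all tested genes (0.207% with a higher value). The drop in KRT81 with EGCG was 0.35 smaller on the log2 scale when resveratrol was present (SE 0.0830, 95% CI 0.18 to 0.51, adjusted p = 0.0742). Fits of replicates 1 to 3 and 4 to 6 gave 0.33 and 0.36, and neither passed the test (adjusted p = 0.747 and 0.441). KRT80 (0.15, SE 0.0451, adjusted p = 0.290), KRT86 (0.54, SE 0.231, adjusted p = 0.552) and KRT7 (0.40, SE 0.187, adjusted p = 0.624) did not pass the test.

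The ratio of KRT8 to KRT18 separated libraries with resveratrol from those without. This ratio of raw counts within a library does not depend on scaling between libraries. It ranged from 1.29 to 1.41 (mean 1.36 ± 0.0424) in control and from 1.35 to 1.44 (1.40 ± 0.0294) with EGCG. With resveratrol it ranged from 1.56 to 1.65 (1.62 ± 0.0330) and with the combination from 1.51 to 1.59 (1.56 ± 0.0295). All libraries that received resveratrol stood above all libraries that did not. With the pseudogenes of both genes added, the means were 1.53, 1.58, 1.81 and 1.79, and the groups with and without resveratrol still did not overlap. Pseudogenes held 27.3% to 31.8% of the summed KRT8 counts and 18.3% to 21.5% of the summed KRT18 counts, and 51 KRT8 and 67 KRT18 pseudogenes were in the table.

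**Figure D5:**
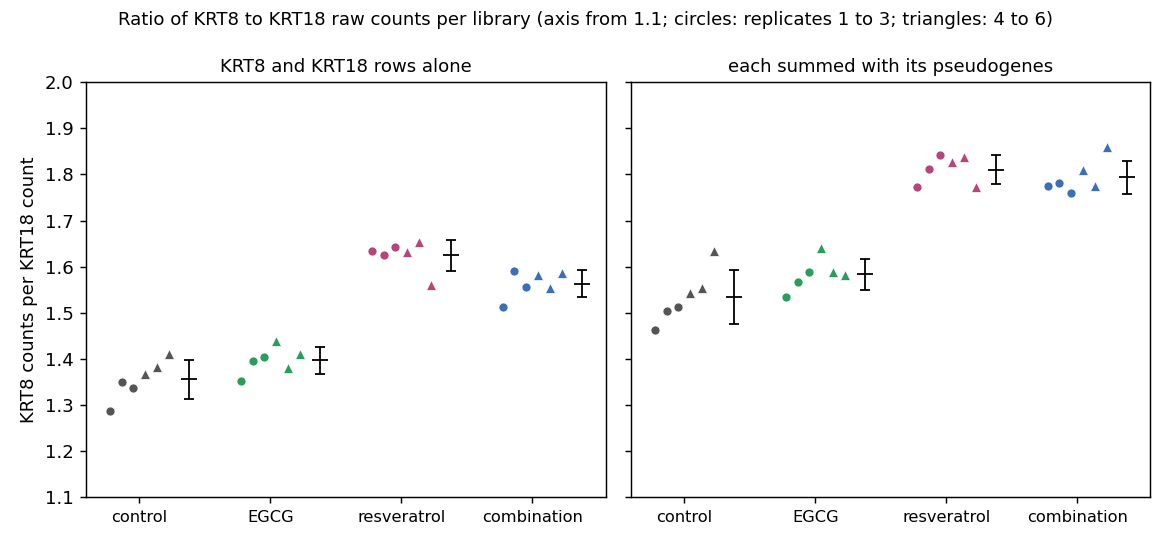
Ratio of KRT8 to KRT18 raw counts per library (y axis from 1.1) in the 4 groups (x axis), for the genes alone (left) and with pseudogene counts added (right), with mean and SD in black. On the left, the 12 libraries with resveratrol lie between 1.51 and 1.65 and the 12 without lie between 1.29 and 1.44.

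Within groups, KRT8 and KRT18 moved together. Pearson's r between their deviations from group means in log2 CPM was 0.85 over the 24 libraries, which share the split by replicate number, compared with 0.36 for KRT81 with KRT86 and −0.10 for KRT18 with KRT80. Over the 24 libraries without removal of group means, r was 0.57 for KRT8 with KRT18, 0.83 for KRT19 with KRT80 and −0.86 for KRT23 with KRT80. These values describe the libraries and carry the group differences given above. KRT8 and KRT18 share 525 exonic bases, and 23.9% of KRT18 windows occur in KRT8. The part of such reads in their correlation was not tested.

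By the same measure, the genes with a pattern most like each keratin were SQSTM1 (r = 0.989), SCD (0.988) and INHBE (0.986) for KRT80, and KIF23 (0.955), TPX2 (0.948) and BUB1 (0.944) for KRT23. For KRT19 they were NOTCH3 (0.927), KIAA1522 (0.920) and GRHL3 (0.919), for KRT18 GAPDHP1 (0.928) and PGAM1 (0.926), and for KRT8 DDIT4 (0.914), TNIP1 (0.846) and TMED9 (0.839). KRT81 was most like SELENOW (0.886), CGB5 (0.876) and GPX1 (0.873). The low-count genes had weaker matches, with at most 0.743 for KRT86 (LUC7L) and 0.679 for KRT7 (HM13).

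Of 22 keratins of stratified epithelium, 14 were tested. After EGCG 0 were called by edgeR or DESeq2, with 1 at an unadjusted p under 0.05, whereas 3 were upregulated and 5 downregulated after resveratrol, and 2 were upregulated and 9 downregulated after the combination, with a median log2 fold change of −0.34. The shares of all tested genes called in these comparisons were 1.76%, 56.9% and 59.8%, so that the counts after resveratrol are near the background. After the combination KRT1, a keratin of differentiating squamous cells, changed by −0.52 (SE 0.105, adjusted p = 6.4e-05), and KRT6B and KRT6C, keratins of activated epidermis, by −0.39 and −0.38. KRT17 was the most changed of the list after resveratrol (−0.41, adjusted p = 3.2e-14). Against resveratrol alone, the combination had 7 of these keratins lower and 0 higher (8 and 0 at an unadjusted p under 0.05, 6 and 0 by DESeq2). In this comparison 7.86% of all tested genes were called (4.01% higher and 3.86% lower).

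Proteins that anchor or link keratin filaments were all tested (13 of 13). After EGCG 0 were called by edgeR or DESeq2, with 1 at an unadjusted p under 0.05, and 4 were upregulated and 5 downregulated after resveratrol and after the combination, beside 56.9% and 59.8% of all tested genes called. The plakin EPPK1 was at 0.32 and 0.39, the linker PLEC at −0.41 and −0.37, and the desmosomal PKP3 at −0.40 and −0.43 in these comparisons. Among other intermediate filaments (8 of 15 tested), 3 were upregulated and 5 downregulated after each of these treatments, which is all 8. The nuclear lamin LMNB1 fell by 0.69 and 0.86 on the log2 scale, whereas SYNM rose by 0.94 and 0.92 and the lens filament gene BFSP1 by 0.79 and 0.98. NEFL was the 1 gene of this list that was called after EGCG (−0.21, adjusted p = 0.00193). After EGCG, 1.76% of all tested genes were called.

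Transcription factors and other regulators known for hair keratins were tested in 7 of 8 cases. HOXC13, a factor of the hair shaft that binds hair keratin promoters, was the 1 gene called after EGCG (−0.29, adjusted p = 0.0774). HOXC13 was higher after resveratrol (0.29, adjusted p = 0.0014) and was not called after the combination (0.03, adjusted p = 0.772). Its part in the KRT81 values was not tested. After resveratrol 5 were upregulated and 0 downregulated (3 and 0 by DESeq2, 5 and 0 at an unadjusted p under 0.05). Among them were BARX2 (0.72), GATA3 (0.43) and DLX3 (0.38). After the combination 2 were upregulated (GATA3, 0.60, and FOXQ1, 0.23), with 1 called by DESeq2. Of all tested genes, 1.76%, 56.9% and 59.8% were called after EGCG, resveratrol and the combination. Upregulated genes made up 28.9% after resveratrol and 29.9% after the combination, so the 2 after the combination are near that share. Of 15 regulators of simple-epithelial keratins, all tested, 1 was upregulated and 2 downregulated after EGCG, 3 and 6 after resveratrol, and 5 and 6 after the combination, again beside 56.9% and 59.8% of all genes for the latter treatments. GRHL3, a grainyhead factor of epithelial differentiation, rose by 1.09 with resveratrol and by 1.02 with the combination, and ETS1 fell by 0.64 with resveratrol.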

How the data were processed

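RNA was measured by stranded poly(A) RNA-seq with 50-base paired-end reads. Per the submitters' processing notes, the authors used bcl2fastq 2.17.1.14, Trimmomatic 0.36, FastQC 0.11.5, HISAT2 2.0.4 with GRCh38, SAMtools 1.3.1 and DESeq2 1.20.0. The counting program, annotation release and strand setting are not given in the sources used here. The authors deposited raw counts per gene, normalized counts (a depth-scaled signal in which each library's counts share 1 divisor) and FPKM. All 24 libraries were mapped to groups by their labels.

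Raw counts were tested with edgeR 4.0.16 in R 4.3.3 (TMM, filterByExpr with a minimum count of 10, quasi-likelihood fit, all 24 libraries, group as the only term), and calls used an adjusted p under 0.1 with p under 0.05. DESeq2 1.42.0 was an alternative. Scripts were tested on simulated counts. Normalized counts were used for levels and FPKM to set genes side by side. CPM for correlations used a prior count of 2. Windows and coordinates came from GENCODE v44. SEs were computed from the F statistic and the 95% CI from its degrees of freedom.

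The members and gene lists were chosen with earlier results of these data known. Named genes were the 8 members, genes that overlap them, their pseudogenes, up to 3 called genes per list and comparison with the largest absolute fold change, and the 3 genes most correlated with each member. Of these, 1 correlated gene is not reported here. Further alternatives were other scalings, filters and thresholds, a replicate block, a batch term, replicates 1 to 3 or 4 to 6 alone, leaving out each library, and summed rows for KRT81 with KRT86 and for members with pseudogenes. No set test was run. Comparisons with control share the same 6 control libraries, as do the other comparisons that have a group in common.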

Additional observations from a re-analysis of the deposited data

Results flagged for a closer look

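KRT7 had 1 library that stood apart in its group: EGCG replicate 2 was highest at 49.6 normalized counts, and the nearest of the other 5 libraries was at 37.3, so that this gap made up 0.701 of the group's range. KRT81 had such a library among those treated with resveratrol, where replicate 1 was highest at 296 and the next was at 274 (0.741 of the range). The limit for 6 libraries is 0.625. Of 32 groups of libraries checked for the 8 keratins, these 2 passed it, and chance alone gives about 1 in 20. Without resveratrol replicate 1, KRT81 stayed called lower against control, and without EGCG replicate 2, KRT7 stayed called higher in the combination than with EGCG.

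The EGCG effect on KRT81 differed with and without resveratrol by 0.35 on the log2 scale in a test of the difference itself (edgeR interaction term, SE 0.0830, adjusted p = 0.0742). It was −0.65 in cells without resveratrol and −0.30 in cells with it. The direction was the same in replicates 1 to 3 and in 4 to 6 (0.33 and 0.36), and the call was lost in 13 of 24 fits that left out 1 library.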

How the results depend on the processing

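No value reversed its direction among called results. The number of keratins called moved by over 1.5 times in these settings. EGCG against control went from 2 to 5 with an unadjusted p alone and to 1 in replicates 4 to 6. Resveratrol against control went from 5 to 3 with at least 10 counts in every library. The combination against resveratrol went from 5 to 3 with every gene of at least 1 count, 3 in replicates 1 to 3 and 2 in replicates 4 to 6. The interaction went from 1 to 0 with library size alone, with an adjusted p under 0.05 and in each set of replicates (1 to 3, 4 to 6), and to 4 with an unadjusted p alone. Fits of either set of replicates use fewer libraries, and the filter of 10 counts removed KRT23 from the test, while KRT81 missed it (adjusted p = 0.129). The cause of the other moves was not tested. Leaving out 1 library gave 2 to 4 calls for EGCG, 4 to 5 for resveratrol, 5 to 6 for the combination, 3 to 5 for the combination against resveratrol, 5 to 6 for the combination against EGCG and 0 to 1 for the interaction. EGCG had 4 calls without EGCG replicate 5, where KRT18 (adjusted p = 0.0632) and KRT23 (0.0969) were added, and the combination against resveratrol had 3 without resveratrol replicate 2. KRT18 after EGCG also passed without control replicate 1, EGCG replicate 6 or combination replicate 3 (0.058 to 0.0834), and after the combination without control replicate 6, combination replicate 1 or combination replicate 3 (0.0294 to 0.0842). KRT86 was higher in the combination than with EGCG without combination replicate 1 (0.0625) or 2 (0.0675).

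KRT81 after resveratrol was lost without control replicates 1, 3 or 5, EGCG replicates 1, 2, 4 or 6, or resveratrol replicates 3 or 6 (adjusted p from 0.0337 to 0.135 over the 24 fits). KRT7 in the combination against EGCG was lost without EGCG replicates 1, 3 or 5 or combination replicates 1, 2, 3 or 6 (0.014 to 0.164). The KRT81 interaction was lost without control replicates 1 or 3, EGCG replicates 3, 4 or 5, resveratrol replicates 2 to 6, or combination replicates 2, 3 or 4 (0.0263 to 0.164). Of the alternatives that kept all libraries or 1 set of replicates, 609 values of single keratins kept their side of the test, 16 gained it and 27 lost it.

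Library size alone moved the median of all genes to 0.0918 for resveratrol and 0.0813 for the combination, from 0.00371 and −0.00151. Their calls moved to 6147 higher with 2857 lower and 6041 higher with 3311 lower. With this scaling KRT8 was called after resveratrol (0.12, adjusted p = 0.00115), a value to be read against that shift. Over all genes, the interaction count was 41, against 69 with DESeq2, 92 with every gene of at least 1 count and 79 with a batch term, and EGCG had 1570 genes at an unadjusted p under 0.05.

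Replicate numbers shared between groups were not shown to pair the libraries: correlations of same-numbered deviations ran from −0.011 to 0.131. Most of these correlations were positive. Same-numbered libraries also share the split by replicate number, so the correlations cannot tell pairing from that split. With the replicate block, KRT18 passed the test after EGCG (0.12, adjusted p = 0.0316) and after the combination (−0.07, adjusted p = 0.0493). The calls over all genes were then 370 for EGCG, against 273 without the block, and 85 for the interaction, against 41.

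Depth limits KRT7, KRT23 and KRT86, which had at most 56 counts in a library. The order of KRT8, KRT18 and KRT19 by level per length, and that of KRT7, KRT23 and KRT86, changed between merged exons and canonical transcripts, an alternative chosen after seeing the data.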

Other observations

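Some rows of KRT8 pseudogenes were also called. Of 22 KRT8 pseudogenes tested, 9 were higher and 1 lower in the combination than in control (4 and 1 by DESeq2). Of all tested genes 59.8% were called, so the count of these rows is not above the background. They were led by KRT8P8 (log2 0.68, adjusted p = 0.000405), with at most 58 counts in a library, whereas KRT8 itself was at 0.14. Of 20 KRT18 pseudogenes tested, 3 were lower and 0 higher after resveratrol (2 and 0 by DESeq2, 3 and 0 at an unadjusted p under 0.05), beside 56.9% of all genes, with KRT18P34 at −0.59 (adjusted p = 0.0176) and KRT18P11 at −0.27 (adjusted p = 0.00463). These rows share sequence with KRT8 and KRT18, and how reads were divided between them was not tested. The summed level of KRT8 with its pseudogenes was 0.15 higher in the combination (SE 0.0283, adjusted p = 1.9e-05) and 0.02 higher after resveratrol (adjusted p = 0.600).

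Some markers of other cell types moved with the groups. Of 7 fibroblast markers, COL1A1 and COL1A2 were tested. COL1A1, at 13.8 FPKM in control, was called in all 6 comparisons: −0.27 after EGCG (adjusted p = 0.00215), 0.29 after resveratrol, 0.48 after the combination, 0.19 in the combination against resveratrol, 0.75 against EGCG and 0.46 for the interaction (adjusted p = 0.000787). COL1A2, at 0.200 FPKM, was called in the combination against EGCG alone (0.51, adjusted p = 0.0205). LUM was at 0.215 FPKM, DCN, COL3A1 and PDGFRB were below 0.01 FPKM, and THY1 was at 0. The summed normalized count of the 7 genes ran from 1117 to 1349 in control, 898 to 1114 with EGCG, 1314 to 1559 with resveratrol and 1526 to 1755 with the combination. Of 4 melanocyte markers PMEL was tested, at 0.170 FPKM in control, and was called higher after resveratrol (0.74, adjusted p = 0.0539), after the combination (1.01, adjusted p = 0.00655) and in the combination against EGCG (0.89, adjusted p = 0.016), while TYR was at 0. Their part in the keratin values was not tested.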
